A study of Mus musculus with 4 samples.

Results

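The genes described here encode the proteins of the mitochondrial ribosome. They were taken as all protein-coding genes listed in both deposited tables whose symbol is Mrpl (large subunit) or Mrps (small subunit) followed by a digit, pseudogenes left out. The rule found 76 of the 16655 genes listed in both tables, 48 with an Mrpl and 28 with an Mrps symbol. Mrps34 met the rule in the table with control 5 alone, with 3 reads in the knockout library and 7 in that control, and so was no member. Mrpl53 was not analysed here.

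Mitochondria carry their own ribosomes, built from RNAs made on the mitochondrial genome and from proteins that are encoded in the nucleus, made in the cytosol and imported. These ribosomes translate a small set of mRNAs, all for membrane subunits of the respiratory chain and of the ATP synthase. Many of their proteins descend from proteins of the bacterial ribosome, and others were added in mitochondria. Microglia, the resident macrophages of the brain, use both oxidative phosphorylation and glycolysis.

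RNA was sequenced from C57BL/6 mouse microglia sorted by fluorescence at embryonic day 14 from telencephalic tissue, which the extraction protocol calls cortex. The knockout group carries a conditional deletion of Arid1a (Arid1acKO), which encodes a DNA-binding subunit of BAF chromatin remodellers, and the control group carries the floxed allele (Arid1afl/fl). The labels list 2 samples per genotype, and values were analysed for knockout replicate 2 and for controls 5 and 6. Knockout replicate 1 was not analysed here. The sources used here do not give the Cre line, nor whether a sample is 1 embryo or a pool. The p-values therefore rest on the spread between the 2 control samples, estimated for each gene with information shared among all genes. That spread may be technical, and the same spread was taken for the 1 knockout sample.

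The libraries held 17262261 counted reads (knockout), 18608979 (control 5) and 13774075 (control 6). Arid1a itself stood at 68.9 CPM (reads per 1e+06 counted reads, scaled between libraries by the TMM method) in the knockout, against 109 in control 5 and 130 in control 6. The knockout value was the lowest, but the log2 fold change of -0.80 (SE 0.41) missed the threshold (adjusted p = 0.901, edgeR). The libraries held microglia transcripts in quantity: the 12 fixed microglia markers summed to 17887 CPM in the knockout, 24670 in control 5 and 34409 in control 6. The knockout library was below both controls in 11 of these 12. Of these, Siglech passed the test (58.3 CPM against 918 and 1057, adjusted p = 0.0324, edgeR). That call depends on the processing: no gene at all was called with other size factors or with no low-count filter. In the same order of libraries, the sums were 127, 158 and 174 CPM for 8 neuronal markers. For 6 endothelial markers they were 26.7, 42.3 and 41.1 CPM, and for 5 neural progenitor markers 205, 138 and 137. Among the progenitor markers Vim had 102 CPM against 36.5 and 18.4, and Nes had 97.0 against 97.0 and 113. Each of the others had at most 3.01 CPM in any library. The sums were 40.9, 37.8 and 46.5 CPM for 6 erythroid markers and 1372, 1678 and 1512 for 10 cycling-cell markers. They were 158, 147 and 177 for 7 markers of neutrophils, monocytes and granule precursors. Of these 7, Ccr2 had 93.0, 120 and 138 CPM. Cpa3 had 23.1, 0 and 13.7 CPM, Mpo had 12.1, 0 and 5.85, and Prtn3 also had no reads in control 5. The part of all these cell types in the members' values was not tested. In sorted bulk samples, fewer cells of a type and less RNA per cell cannot be told apart.

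No mitochondrial ribosomal gene passed the test between the knockout library and the controls. All 76 members passed the filter on low counts and were tested. None passed at an adjusted p under 0.05 (edgeR quasi-likelihood), and none reached an unadjusted p under 0.05 either. The smallest unadjusted p was 0.142, with an adjusted p of 0.956 (edgeR), for Mrps26. Over all 15236 genes tested the same fit called 0.0394% (6 genes) at the adjusted threshold, and 6.00% (914 genes) lay under the unadjusted threshold. The DESeq2 Wald test, which called 2.12% of the genes it could adjust, also called no member, and its smallest unadjusted p among them was 0.212.

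The members lay close to the controls. Their median log2 fold change was 0.08, and the middle 50% of them ran from -0.14 to 0.44. The median over all genes tested was 0.05, with quartiles at -0.51 and 0.62. A total of 60 of the 76 members (78.9%) were within 1.5-fold of the control level, against 51.6% of all genes tested. Read against genes of higher abundance the gap was smaller: 86.2% of the 65 members averaging at least 5 CPM, and 63.9% of all genes at that mean, were within 1.5-fold. Whether abundance sets this difference was not tested.

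Precision limits these statements. The median SE of a member's log2 fold change was 0.51. For 58 of 76 members the 95% interval of the fold change lay within 4-fold in both directions, but only for Mrpl2 and Mrpl16 did it lie within 2-fold. Mrpl2, a relative of a bacterial protein near the peptidyl transferase centre, had 96.8 CPM in both the knockout library and control 5 and 85.5 in control 6. Its log2 fold change was 0.09, with an interval from -0.81 to 0.99. Mrpl16, a further large-subunit gene chosen for its narrow interval, had 72.8 CPM against 77.6 and 65.9. In both genes the knockout value lay between the controls.

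The knockout library was above both controls in 32 members (42.1%) and below both in 11 (14.5%), and it lay between them in the other 33. Among all genes tested these shares were 38.0% above and 31.1% below, or 69.1% outside both. The count above was thus near the background, and the count below was lower than it. The summed level of the 76 members was 3105 CPM in the knockout against 3114 in control 5 and 2647 in control 6. The knockout sum thus lay between the controls, close to that of control 5.

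The controls also differed from each other across the members. Control 5 was higher than control 6 in 52 of 76 members (68.4%), with a median log2 ratio of 0.22, while over all genes tested it was higher in 44.7%, with a median of -0.07. Of the 33 members with the knockout library between the controls, control 5 was the highest library in 29. Which control was used therefore set the sign of the median: against control 6 alone the median log2 ratio was 0.22, with 61 members higher in the knockout library, and against control 5 alone it was -0.05, with 36 higher. Among all genes 51.3% and 55.5% were higher in the knockout library than control 6 and control 5.

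**Figure D1:**
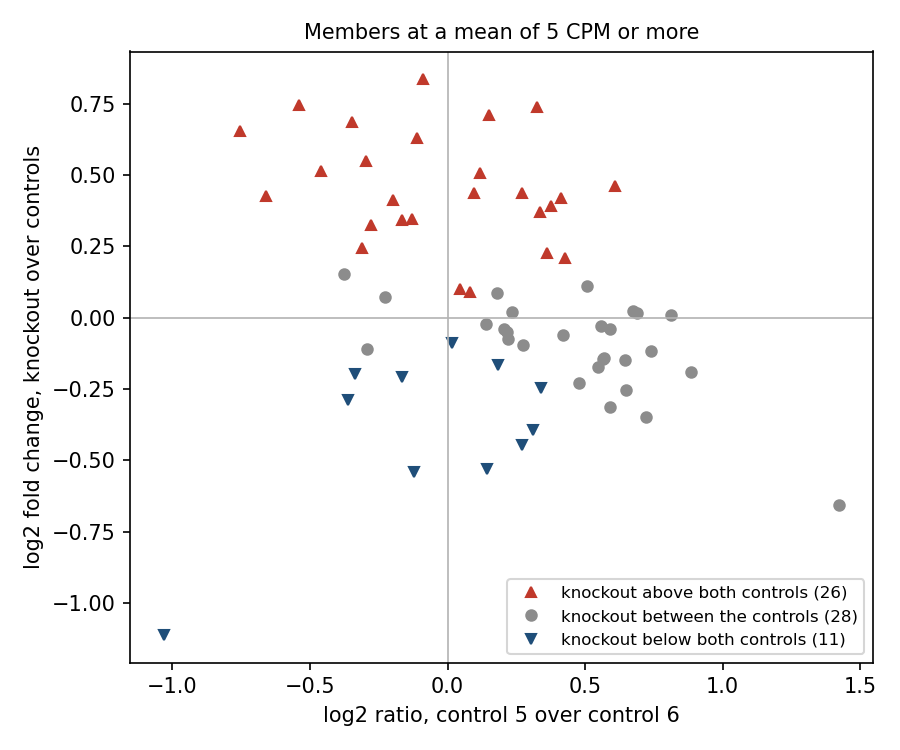
The x axis gives the log2 ratio of control 5 over control 6 and the y axis the fitted log2 fold change of the knockout library over the controls, 1 point for each of the 65 members averaging at least 5 CPM. Points with the knockout library between the controls (28) lie mostly to the right of 0, where control 5 was the higher control, and those above both (26) or below both (11) lie on either side.

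Among members above both controls, the smallest p-values belonged to Mrps26, Mrpl40, Mrpl4 and Mrpl44. Mrps26, a mitochondria-specific protein of the small subunit (ENSMUSG00000037740, chromosome 2, 130563742 to 130568695, plus strand), had 35.8 CPM in the knockout, with control 5 at 19.4 and control 6 at 20.7. The controls nearly coincided and the knockout library stood apart, with a log2 fold change of 0.84 (SE 0.51). Mrpl40, of the central protuberance of the large subunit (ENSMUSG00000022706, chromosome 16, 18872018 to 18876767, minus strand), had 59.4 CPM against 38.2 and 34.4. Its log2 fold change was 0.71 (SE 0.44). Mrpl4 (ENSMUSG00000003299, chromosome 9, 21002738 to 21008839, plus strand) is a relative of a bacterial protein that reaches into the peptide exit tunnel. It had 51.6 CPM against 25.1 and 36.5, a log2 fold change of 0.75 (SE 0.48) over controls that were themselves apart. Mrpl44, which has the fold of an RNase III enzyme, had 54.9 CPM against 30.1 and 38.2, a log2 fold change of 0.69 (SE 0.46). None of these 4 passed the test (adjusted p from 0.956 to 0.959, edgeR). A stretch of 15.1% of the longest coding transcript of Mrps26, and 10% of that of Mrpl40, matches transcripts of other genes, so part of their reads may be uncertain.

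The next members above both controls by p-value, among those averaging at least 5 CPM, were Mrpl35, Mrpl15, Mrps5, Mrpl36, Mrps18a and Mrpl46. Mrpl35 had 23.3 CPM in the knockout, 15.5 in control 5 and 12.4 in control 6. Mrps5, of the small subunit, had 51.2 CPM against 30.2 and 41.6. In Mrps5, Mrpl36 and Mrps18a the knockout library exceeded the higher control by less than the controls differed from each other, and in Mrpl35, Mrpl15 and Mrpl46 by more. Mrpl15 had 106 CPM against 85.5 and 70.8. Mrpl36, a small zinc-binding protein of the large subunit, had 134 CPM against 115 and 86.0. Mrps18a had 156 CPM, the highest level in CPM of any member, against 134 and 103. Mrpl46, of the central protuberance, had 77.0 CPM against 53.8 and 61.7. The fitted log2 fold changes of these 6 genes ran from 0.39 to 0.74.

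Members below both controls were fewer, and all but Mrpl30 had fitted log2 fold changes between -0.54 and -0.09. Mrpl24, a relative of a bacterial protein at the mouth of the exit tunnel, had 47.8 CPM in the knockout, against 66.6 in control 5 and 72.5 in control 6, a log2 fold change of -0.54 (SE 0.42). Here the controls lay closer to each other than to the knockout library. Mrpl24 shares 26.3% of its exon bases with Rrnad1 on the opposite strand, and counts from a kit that does not mark strand cannot tell the 2 genes' reads apart there. Mrpl30 had 4.27 CPM against 6.03 and 12.4, a log2 fold change of -1.11 (SE 0.95) with the controls further from each other than the knockout library was from control 5. Mrpl32, whose protein must be cut by a mitochondrial protease before it joins the ribosome, had 12.2 CPM against 18.4 and 16.7. Mrpl49 had 23.8 CPM against 35.4 and 29.3, and Mrpl48, of the central protuberance, had 35.6 CPM against 51.8 and 41.7. Mrpl37, Mrps27, Mrps10, Mrps18c and Mrpl33 had log2 fold changes from -0.29 to -0.17. Mrps27 encodes a protein of the RNA-binding pentatricopeptide repeat family and had 16.0 CPM against 17.1 and 22.0. No member below both controls passed the test (adjusted p = 0.9998 in each, edgeR).

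**Figure D2:**
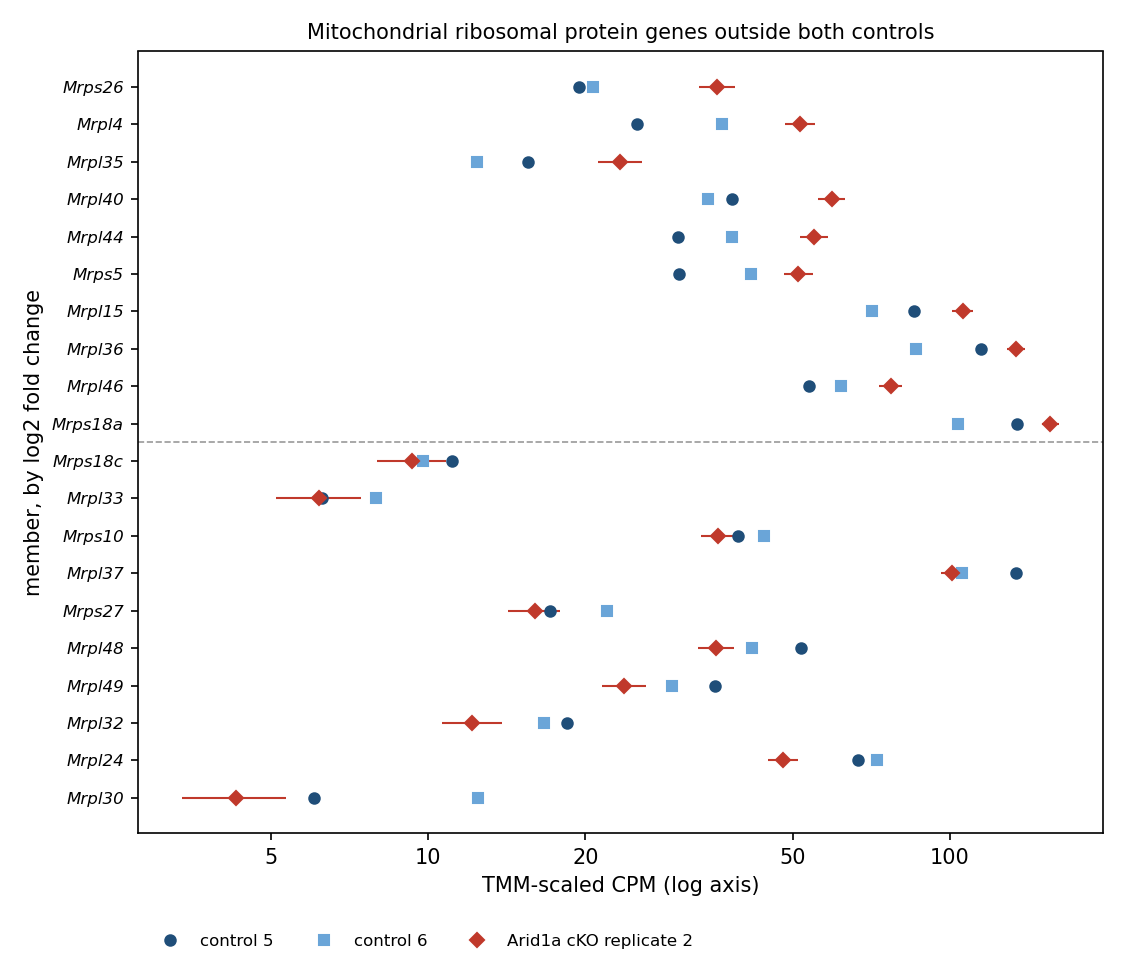
The x axis gives TMM-scaled CPM on a log axis for the 10 members above and the 10 below both controls with the smallest p-values among those averaging at least 5 CPM, ordered by log2 fold change. Diamonds are the knockout library with 95% Poisson intervals, which cover counting error only, and circles and squares are controls 5 and 6. In Mrps26 the controls nearly coincide at 19.4 and 20.7 CPM with the knockout library at 35.8, while in Mrpl37 the knockout library (101) lies beside control 6 (106).

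Only 4 members had a fitted change of 2-fold or more, and all 4 had few reads. Mrpl20 (named, like Mrps23 below, after its values were seen) had 138 knockout reads against 67 in control 5 and 48 in control 6, a log2 fold change of 1.05 (SE 1.01). Mrpl13 had 68 reads against 41 and 19, a log2 fold change of 1.00 (SE 1.49). Mrps36 had 37 reads against 25 and 6, with an SE of 2.12 on a log2 fold change of 1.13. Its protein is now assigned to the 2-oxoglutarate dehydrogenase complex and not to the ribosome, so its place in the family rests on its name. The remaining gene was Mrpl30, on the lower side. With such counts a difference of this size could not be told from the spread.

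Levels per length spanned a wide range. On the scale of CPM per kb of annotated exon, the mean control level ran from 0.23 (Mrpl13) to 105 (Mrpl27), with a median of 9.73. Annotated exon here joins the exons of all transcripts of a gene. For Mrpl13 this is 7936 bases, against 1223 in its longest coding transcript, so its rank depends on the length used. The highest were Mrpl27, Mrpl36, Mrpl2, Mrpl41 and Mrps15. Mrpl27, a relative of a bacterial protein that reaches the peptidyl transferase centre, had 93.4 CPM per kb in the knockout and 125 and 85.5 in controls 5 and 6. Mrpl36 had 115, 98.6 and 74.0 CPM per kb, so the first 2 places in the order changed between libraries. Mrpl41 had 73.7, 63.7 and 50.4 CPM per kb and Mrps15 had 64.7, 46.6 and 56.5. The lowest were Mrpl13, Mrps25, Mrps22, Mrps18b and Mrpl52, with 4 to 72 reads in any library. Of the 10 highest members of each library 7 were shared by all 3 libraries, and of the 10 lowest 9 were shared.

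**Figure D3:**
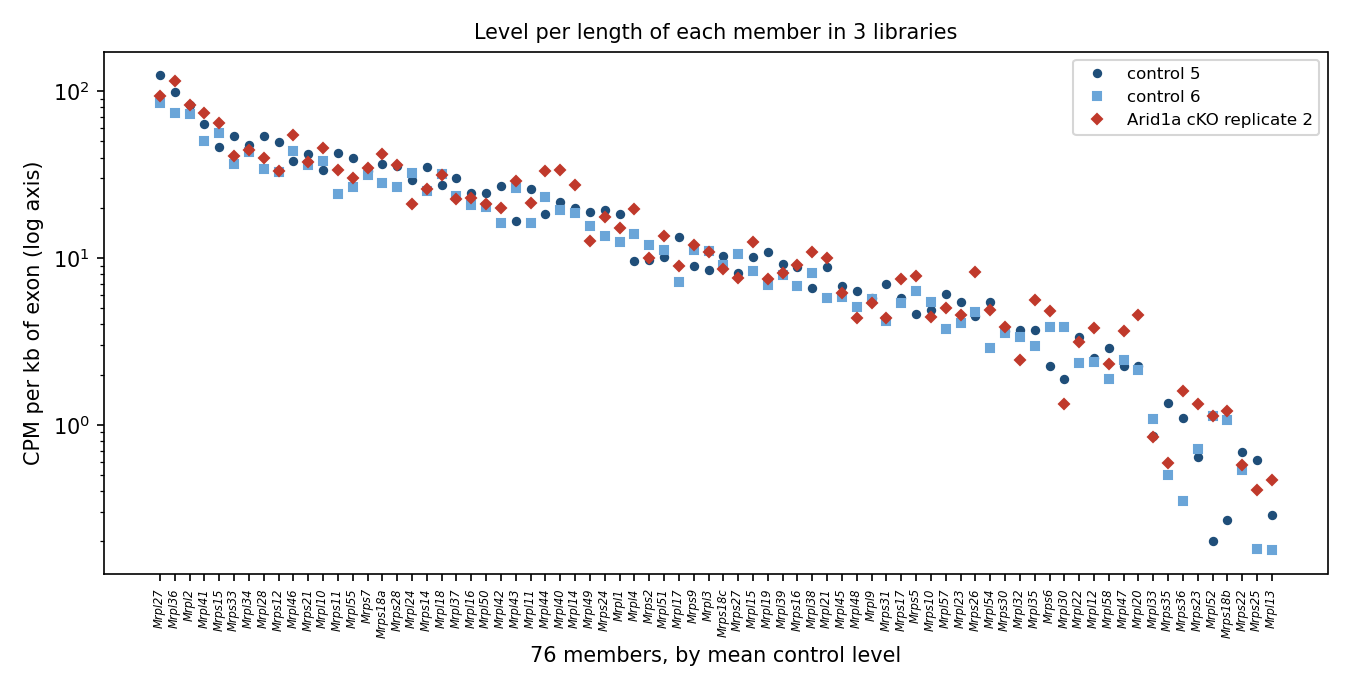
The x axis lists the 76 members by mean control level and the y axis gives CPM per kb of exon on a log axis in each library. Levels fall from about 100 CPM per kb (Mrpl27, Mrpl36) to under 1 (Mrpl13, Mrps25) in all 3 libraries, and the lowest members, with 4 to 72 reads, scatter widely between libraries.

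Sequence shared with other genes bears on some of these levels. In 16 members 10% or more of the exon bases are also covered by another gene, and in 23 members 10% or more of the longest coding transcript matches a transcript elsewhere at 95% identity or more, often that of a pseudogene. These criteria together marked 35 members. Of the 11 members under 5 CPM, 5 were marked. Mrps25 shares 69.8% of its exon bases with Nr2c2 on the opposite strand and had 49, 72 and 16 reads. Mrpl22, of the exit tunnel, matches the pseudogene Gm6997 over 86.0% of its transcript and had 56, 59 and 31 reads. Of the 5 highest members per kb, Mrpl2 and Mrps15 met neither criterion. The other highest members matched elsewhere over 73.0% (Mrpl27), 47.9% (Mrpl41) and 17.9% (Mrpl36) of the longest coding transcript. Reads that fit 2 genes may have been left out or divided by the counting, so the levels of the marked genes are uncertain. The other members under 5 CPM, among them Mrpl13, Mrps22 and Mrps23, met neither criterion. Over the 41 members with no such feature the median log2 fold change was 0.02, with 14 above both controls and 5 below.

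By subunit and descent the medians lay between -0.09 and 0.17. The 30 large-subunit proteins with bacterial relatives had a median of 0.05 on the log2 scale, with 11 above both controls and 5 below. The 20 mitochondria-specific proteins of the large subunit, which include those of Mrps30 and Mrps18a despite their symbols, had 0.17, with 9 above and 3 below. In the small subunit the 16 with bacterial relatives had 0.10, with 8 above and 2 below, and the 9 mitochondria-specific ones had -0.09, with 3 above and 1 below. The quartiles of each group lay on either side of 0, and those of the small subunit differed in width, from -0.12 to 0.26 with bacterial relatives and from -0.29 to 0.84 without. For the 6 genes listed around the peptide exit (Mrpl17, Mrpl22, Mrpl23, Mrpl24, Mrpl45 and Mrpl47), a list that does not hold Mrpl4, the median was -0.05, for the 4 of the flexible stalks (Mrpl1, Mrpl10, Mrpl11 and Mrpl12) it was 0.18, and for the 9 of the central protuberance it was 0.07. Among all genes tested 38.0% were above both controls and 31.1% below. No difference between these groups was tested.

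The 3 Mrps18 genes are paralogs that encode proteins of different sites. Mrps18a had 2847 knockout reads, and 2404 and 1396 in controls 5 and 6. Mrps18c, the relative of the bacterial protein, had 170, 199 and 132 reads, and Mrps18b had 46, 10 and 30. Mrps18a was thus the most counted and Mrps18b the least counted in every library. Mrps18b shares 30.5% of its exon bases with Gm16279 and 38.6% of its transcript with a pseudogene, and Mrps18c shares 23.2% with Gm43511, so the low counts of these 2 genes are uncertain. In Mrps18a neither feature was found.

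Among members averaging at least 5 CPM, the controls differed most from each other in Mrps35, Mrpl30 and Mrpl17. Mrps35, of the small subunit, had 5.09 CPM in the knockout, but 11.7 in control 5 and 4.30 in control 6. Mrpl17, of the exit tunnel, had 68.3 CPM against 101 and 54.7. In both genes the knockout library lay nearer to control 6, and in Mrpl30 nearer to control 5.

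Promoters of these genes are known to hold sites for NRF1 and for GABPA, an ETS-family factor, both regulators of nuclear genes for mitochondria. Promoter sequences from RefSeq (GRCm38.p6) were found for 68 of the 76 members, and the 250 bases before the start were searched on both strands for exact matches. The ETS motif ACTTCCGG was found in 10 of 68 members (14.7%), against 6.57% of the 10323 tested genes with a promoter in the table. A gene counted where any of its listed starts had a match, and in Mrpl48 this was 1 of 4 starts, inside the gene as annotated in the files. The palindromic core of the NRF1 motif was found in 3 (4.41% against 1.84%). The motif of YY1, a zinc finger factor, was found in 1 (1.47% against 0.53%). The 3 stretches with a match that touch no annotated exon and lie ahead of the annotated gene are shown, 5′ to 3′ on the gene's strand with the motif or its reverse complement in capitals, since they carry the ETS letters just ahead of 1 member above both controls (Mrpl43), 1 below both (Mrps27) and 1 between them (Mrps22).
Mrpl43, chr19:45006443-45006466, minus strand: acaaccccggaaCCGGAAGTcacc
Mrps22, chr9:98601680-98601702, minus strand: aaacctctcgagCCGGAAGTtgc
Mrps27, chr13:99344725-99344756, plus strand: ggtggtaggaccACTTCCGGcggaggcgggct

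The match begins 12 bases before the RefSeq start in Mrpl43, 11 in Mrps22 and 49 in Mrps27. Mrpl43 (named, like Mrps22 in this respect, for its sequence) had 43.8 CPM in the knockout, with 25.3 in control 5 and 40.0 in control 6. Mrpl43 shares 33.4% of its exon bases with Twnk and Mrps27 24.2% with 6430562O15Rik, both on the opposite strand. Mrps22 had 42 reads in the knockout, 49 in control 5 and 29 in control 6. The place of these 3 genes relative to the controls is thus uncertain, and any bearing of the ETS letters on it was not tested. Over the 14 members with any of the 3 motifs the median was -0.08 on the log2 scale, with 3 above both controls and 5 below. The 54 with a promoter but no match had 0.09, with 24 above and 6 below. Among all genes tested 38.0% were above both controls and 31.1% below. The difference between members with and without a match was not tested. The factors' binding was not measured.

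Some members lie head to head with another gene. In 25 members a protein-coding gene on the opposite strand starts within 1000 bases, or overlaps the start by up to 500, and these form 24 pairs. One pair is within the family: Mrpl46 and Mrps11 on chromosome 7, whose annotated starts overlap by 412 bases. Mrpl46 was above both controls (77.0 CPM against 53.8 and 61.7), while Mrps11 lay between them (73.0 against 92.3 and 52.5). Of the 23 pairs with both genes tested, the fold changes had the same sign in 10, and they differed by a median of 0.51 on the log2 scale. No such counts were made for other genes, so these are not read as a trait of the family. The fold changes lay furthest apart among these pairs in Mrpl2 and Klc4, with opposite signs. Klc4 had 19.1 CPM in the knockout library against 43.7 and 54.0, while Mrpl2 stood level with control 5.

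The ribosomal proteins with other symbols lay in the same range. For this list and those that follow, the shares among all genes tested were 38.0% above both controls and 31.1% below. Of Dap3, Gadd45gip1, Aurkaip1, Chchd1 and Ptcd3, 4 were above both controls and 1 below, with a median log2 fold change of 0.38. Chchd1 had 47.0 CPM in the knockout against 34.6 in control 5 and 28.3 in control 6. Dap3, a GTP-binding protein of the small subunit, had 61.0 CPM against 40.5 and 53.1. Aurkaip1 was the one below both, with 48.8 CPM against 61.7 and 54.8. None of the 5 passed the test.

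Genes that build and run the mitochondrial ribosome also gave no call. Of 25 assembly and rRNA modification genes 12 were above both controls and 4 below (median log2 fold change 0.09), and of 13 translation factors 6 were above and 4 below (0.07). Trub2, a pseudouridine synthase family member, had 61.3 CPM in the knockout against 17.9 in control 5 and 35.5 in control 6 (log2 fold change 1.20, SE 0.53). Gtpbp10, a GTPase of large-subunit assembly, had 6.35 CPM against 13.4 and 14.1, and C1qbp had 99.0 CPM against 62.1 and 70.2. Among translation factors, Gfm2, which acts in ribosome recycling, had 82.7 CPM against 154 and 121. Mrrf, the recycling factor that works with it, had 17.9 CPM against 8.66 and 9.34. These 2 partners of 1 step thus stood on opposite sides of the controls, and neither passed the test (adjusted p = 0.931 and 0.959, edgeR).

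Of 22 mitochondrial aminoacyl-tRNA synthetase and related genes 10 were above both controls and 4 below, with a median log2 fold change of 0.19. Lars2, the leucine enzyme, had 41.2 CPM in the knockout library against 24.0 and 27.6, above both controls without passing the test (adjusted p = 0.973, edgeR). Of 15 tested genes of mitochondrial transcription and mRNA handling 7 were above and 2 below (median 0.19). Polrmt, the mitochondrial RNA polymerase, had 29.6 CPM against 8.10 and 21.8, so the controls differed by more than the knockout library exceeded control 6. Tfam, which packages mitochondrial DNA, had 56.2 CPM against 39.6 and 38.0.

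The RNAs of the mitochondrial genome gave 5 genes above both controls and 2 below among 12 tested, with a median log2 fold change of 0.06. The rRNAs that the members bind, mt-Rnr1 and mt-Rnr2, were both above the controls: mt-Rnr1 had 22.2 CPM against 8.55 and 12.2, and mt-Rnr2 had 652 CPM against 447 and 537. The mRNA mt-Cytb had 5043 CPM against 11472 and 6885, with an unadjusted p of 0.0440 and an adjusted p of 0.820 (edgeR). Its level in control 5 weighs on the summed level of these 12 genes, which was 10506 CPM in the knockout, 16885 in control 5 and 11648 in control 6. None of the 12 passed the test.

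Among 11 regulators of mitochondrial gene expression tested, 5 were above both controls and 3 below (median log2 fold change 0.14). Myc, which drives ribosome and mitochondrial genes in growing cells, had 255 CPM in the knockout library against 121 and 113. The controls were close to each other, and the log2 fold change of 1.13 (SE 0.35) had an unadjusted p of 0.0129 but did not pass over all genes (adjusted p = 0.592, edgeR). Gabpa had 62.8 CPM against 81.0 and 83.8. Of 12 genes of the mitochondrial unfolded protein response 9 were above and 2 below, with a median of 0.43. Atf4, a stress-response transcription factor, had 153 CPM against 94.0 and 101, and Clpx, a subunit of a matrix protease, had 43.2 CPM against 95.6 and 66.5. Neither list had a gene that passed. Among all genes tested 38.0% were above both controls and 31.1% below.

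The genes of the cytosolic ribosome and of the respiratory chain are set beside the members here, taken by their symbols, which may admit a few look-alikes. Of 82 tested genes with cytosolic ribosomal protein symbols, 63 (76.8%) were above both controls and 3 below, with a median log2 fold change of 0.49. Of 79 nuclear genes of the respiratory chain, 31 (39.2%) were above and 11 (13.9%) below, with a median of 0.14. Ndufs3, a complex I subunit and the gene of that list with the smallest p-value, stood far below both controls, at 4.87 CPM against 22.4 and 24.5 (log2 fold change -2.27, SE 0.68, adjusted p = 0.549, edgeR). The members gave 42.1% above, 14.5% below and 0.08, and all genes tested gave 38.0%, 31.1% and 0.05. No gene of either list passed the test, and the difference between the lists was not tested. All 3 lists had higher values in control 5 than in control 6, in 76.8% of the cytosolic, 77.2% of the respiratory and 68.4% of the mitochondrial ribosomal genes. Rpsa, named by its p-value among the cytosolic genes, had 153 CPM against 78.6 and 67.5, and reads of such genes can be split with their many near-identical pseudogene copies.

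**Figure D4:**
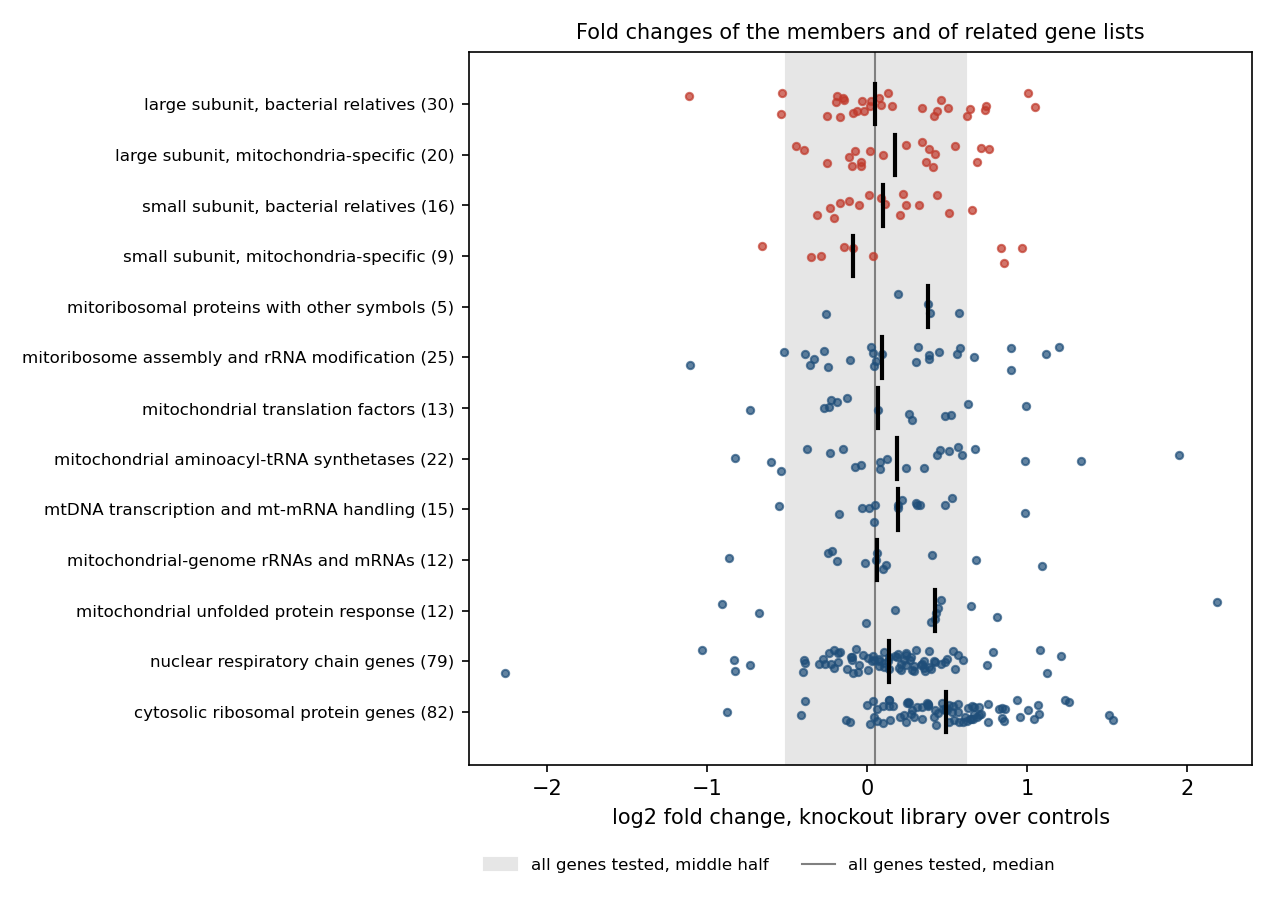
The x axis gives the log2 fold change of the knockout library over the controls for each tested gene of the 4 member groups (red) and of related lists (blue, number of genes in brackets), with a black bar at each list's median. The grey band and line are the quartiles (-0.51 and 0.62) and median (0.05) of all genes tested; the member groups' medians run from -0.09 to 0.17 and that of the cytosolic ribosomal protein genes is 0.49.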

How the data were processed

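The submitters' processing notes name TopHat2 2.0.12, Bowtie2 2.2.3, HTSeq 0.6.0 and build mm9. How ambiguous reads were handled is not given in the sources used here. Gene positions in the files are those of GRCm38 (66 of 76 members identical to GENCODE M21, all 76 overlapping it). The authors deposited 2 tables of raw read counts per gene, each with the knockout library beside 1 control, and CPM, which the deposited values show to be the count over the library total with 0 shown as 0.5 reads. The 2 tables share 16655 genes with identical knockout counts. A further 574 and 1297 genes stand in 1 table only, so genes with few reads are under-represented.

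Counts of the shared genes were fitted with edgeR 4.0.16 (R 4.3.3): filterByExpr, TMM (factors 1.059, 0.963 and 0.981), a quasi-likelihood F test and Benjamini-Hochberg adjustment over all 15236 genes, two-sided, with 1 residual degree of freedom and a common dispersion of 0.438. Each standard error is the log2 fold change over the square root of F, and ratios to 1 control use a prior count of 2. The procedure was tested on simulated data with a smaller dispersion than this and with changes larger than any fitted for a member. That test therefore does not show how well changes of the members' size would be found here. Exon lengths and overlaps are from GENCODE M21, and transcript matches are from blastn 2.17.0 (95% identity, 100 bases or more). Poisson intervals of a level cover counting error only, since PCR copies are not independent molecules. Intervals of a fold change come from its standard error.

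The members and gene lists were chosen with earlier results of these data known. Genes were named by rule: up to 10 members per direction outside both controls by p among those averaging at least 5 CPM, the 5 highest and lowest per kb, the 3 with the largest ratio between controls, the Mrps18 paralogs, Mrps36, and up to 4 genes of each other list by p. Alternatives were other size factors, other low-count filters, the DESeq2 1.42.0 Wald test, genes in either table, and leaving out either control. The authors' fold changes and p-values were not used. One gene that the naming rule selects is not reported here.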

Additional observations from a re-analysis of the deposited data

How the results depend on the processing

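No paired analysis was possible with 1 knockout library, and the knockout and control samples share no replicate number that would name pairs. No alternative called a member, at the adjusted or at the unadjusted threshold, where a test could be run. Neither Arid1a nor any of the 32 members named by rule changed its sign in the fits with other factors, filters, genes or tests, except that 6 of these genes had no value under the filter at 5 CPM. The median log2 fold change of the members ran from 0.02 to 0.09 over these fits. The number of genes called over the whole table was less stable: 6 as reported, 0 with DESeq2 size factors, with upper-quartile factors or with no low-count filter (895, 818 and 948 at an unadjusted p under 0.05), 10 with genes in either table, 44 with the filter raised to 5 CPM in 2 libraries and 223 with the DESeq2 Wald test. With 1 control left out there is no residual spread and no test. Members above the remaining control were then 36 or 61 and those below it 15 or 40, and the median was -0.05 without control 6 and 0.22 without control 5. Among the members named by rule, the sign turned in Mrpl27, Mrps22, Mrpl52, Mrps35 and Mrpl17 without control 5. Without control 6 it turned in Mrpl2 and Mrps25. These named members lay between the controls, as did 33 of all 76 members. Where the knockout library lies between the controls, the ratios to each control have opposite signs by definition. Mrps5 gave 0.30 without control 5, and Mrpl30 gave -1.52 without control 5 and -0.49 without control 6. Among the 41 members without shared sequence, a choice made after the data were seen, 14 were above both controls and 5 below. Members with under 100 reads in some library (15) carry the widest errors.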
